A study of Mus musculus with 18 samples.

Results

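The mitochondrial carrier family Slc25a comprises membrane transporters that move metabolites, nucleotides, cofactors and ions across the inner mitochondrial membrane. Members were taken as every gene whose symbol is Slc25a followed by a number, which gave 47 of the 23420 genes in the count tables. Of these, 41 passed the filter on low counts and were tested. Fibroblasts were taken from hearts of newborn CD1 mice as primary cultures and transduced with a retrovirus carrying Mef2c, Gata4 and Tbx5 on 1 transcript (MGT), which drives fibroblasts towards induced cardiomyocytes. The study's question is by which routes reprogramming improves when Mtfr1l, a protein of the outer mitochondrial membrane, is depleted. All 12 libraries of the main sample set carried MGT and differed in their short hairpin RNAs (shRNAs): a non-targeting control (shNT), shMtfr1l, shOpa1, or shMtfr1l with shOpa1 (the double knockdown), with 3 libraries each. Opa1 is the GTPase that fuses inner mitochondrial membranes. In each group the titles give replicate 1 as day 7, replicate 2 as day 8 and replicate 3 as day 9. The labels call the libraries biological replicates without saying whether each came from separate animals, so p-values measure the spread between these samples. The genotype field numbers the Opa1 hairpin differently in replicates 1, 2 and 3, and the titles, which read shOpa1 in all of them, were used. An earlier set held 1 shNT and 1 shMtfr1l reprogramming sample at day 7 and is used for directions alone.

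Carriers of this family share a fold of repeated pairs of membrane helices and work mostly as exchangers, opening in turn to the intermembrane space and to the matrix. They supply ADP and phosphate to ATP synthase, link the citric acid cycle to the cytosol, and bring in amino acids, acylcarnitines, iron, glutathione and coenzymes. Heart muscle is rich in the ADP/ATP and phosphate carriers, because its contraction rests on mitochondrial ATP.

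Depth ran from 16205862 to 25317069 gene counts per library. Scaled to library size (CPM; mean ± SD, n = 3), Mtfr1l fell from 71.9 ± 4.17 in shNT to 16.4 ± 2.88 in shMtfr1l and 27.2 ± 4.15 in the double knockdown, and was 69.6 ± 3.34 in shOpa1. Opa1 fell from 63.1 ± 8.33 CPM in shNT to 8.96 ± 3.16 in shOpa1 and 18.3 ± 2.34 with both hairpins, and was 72.1 ± 1.35 in shMtfr1l. On average, each target was less reduced by the joint knockdown. The 9 cardiomyocyte markers summed to 2464 to 2526 CPM in shNT, 3413 to 3699 in shMtfr1l, 1489 to 1664 in shOpa1 and 2024 to 2088 in the double knockdown. The 8 fibroblast markers summed to 31748 to 34507, 31530 to 33440, 36546 to 37498 and 34578 to 36838 CPM, and every marker of both lists had counts. Single markers did not all follow these sums. Against shNT, 3 fibroblast markers were called higher and 3 lower in shOpa1 (75%, against 29.4% of all genes, edgeR adjusted p under 0.05). In the double knockdown 2 cardiomyocyte markers were called higher and 3 lower (55.6%, against 23.1% of all genes). The 5 macrophage markers found in the table summed to 256 to 375 CPM in shNT and 526 to 665 in the double knockdown, with no overlap. In shMtfr1l they summed to 130 to 466 CPM and in shOpa1 to 218 to 530, which overlaps the double knockdown. None of the 5 was called in the double knockdown against shNT by the edgeR test, 3 having an unadjusted p under 0.05. The 5 epicardial markers summed to 228 to 234 CPM in shNT and to 152 to 203 across the knockdown groups, and the 5 smooth muscle markers to 4139 to 4509 and to 3378 to 3825, both lower in all 9 knockdown libraries. The 6 endothelial markers summed to 21.3 to 29.9 CPM in shNT, 34.0 to 40.2 in shMtfr1l, 16.6 to 26.04 in shOpa1 and 31.7 to 34.3 with both hairpins. The part of these lists in the carrier changes was not tested. The 4 adipocyte markers summed to 69.6 CPM in shMtfr1l replicate 1 and to at most 4.95 CPM in the other 11 libraries. In these bulk samples, fewer cells of a type and less RNA per cell cannot be told apart.

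Per length, the family was dominated by the carriers that feed ATP synthase. Slc25a4, the ADP/ATP carrier of heart and skeletal muscle, had the highest mean level at 467.7 CPM per kb of exon and made up 36.1% of the family's summed level per kb. Slc25a3, the phosphate carrier, followed at 252 CPM per kb (19.5%), and Slc25a5, the ADP/ATP carrier found in most tissues, at 118 CPM per kb (9.07%). Much of the Slc25a5 transcript occurs in other genes too, and reads that map to several places were not counted, so its level may be understated. Slc25a39, a glutathione carrier, was the fourth at 82.3 CPM per kb, and Slc25a1, the citrate carrier, the fifth at 46.6. These 5 genes held 74.6% of the family's level per kb. Of the 47 members, 17 lay at 10 or more CPM per kb, 19 from 1 to under 10, and 11 under 1.

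**Figure D1:**
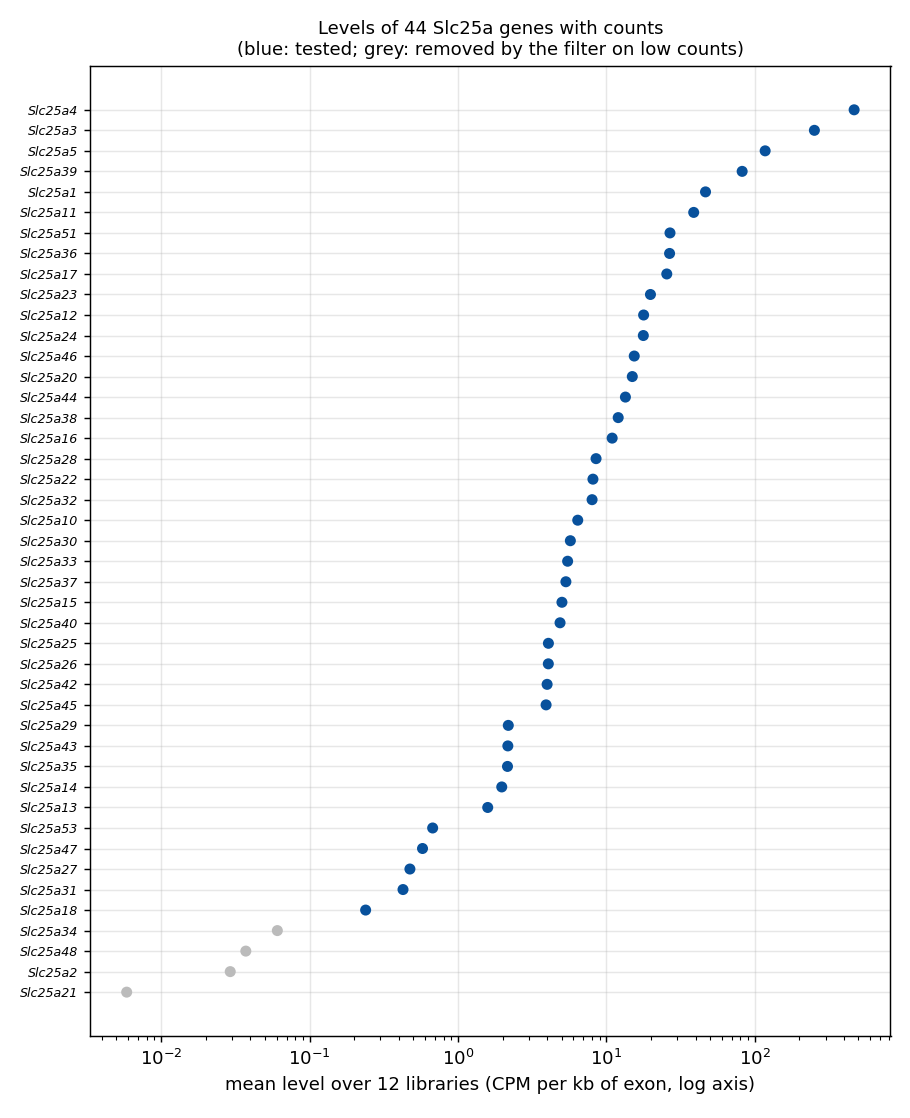
Mean level of 44 Slc25a genes with counts over the 12 libraries, in CPM per kb of exon on a log axis. Slc25a4 and Slc25a3 stand highest at 467.7 and 252 CPM per kb, and the 4 grey points are genes with counts that did not pass the filter.

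The low end of the family held 6 members that were not tested. Slc25a41, an ATP-Mg/phosphate carrier gene, and Slc25a54 had no count in any of the 12 libraries. Slc25a21, the oxodicarboxylate carrier, had 5 counts, all in 1 library. Slc25a2, an ornithine carrier gene, had 11 counts and Slc25a48 had 14, each over 3 libraries. Slc25a34 had 40 counts in all and at most 8 in a library. The lowest member tested was Slc25a18, a glutamate carrier, at 0.239 CPM per kb, against 8.13 CPM per kb for Slc25a22, the other glutamate carrier. Slc25a31, the ADP/ATP carrier of germ cells, lay at 0.427 CPM per kb.

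The summed level of all members was lower in shNT than in every other library. It was 2132, 2079 and 2045 CPM in the 3 shNT libraries, and from 2178 to 2252 CPM in the other 9. The group means were 2085 ± 43.8 CPM in shNT, 2220 ± 30.7 in shMtfr1l, 2219 ± 36.5 in shOpa1 and 2222 ± 10.1 with both hairpins (SD, n = 3). Slc25a3, Slc25a4 and Slc25a5 together made up 49.3% of this CPM sum in shNT, 48.7% in shMtfr1l, 46.0% in shOpa1 and 47.2% with both hairpins.

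Knockdown of Mtfr1l during reprogramming changed 6 of the 41 tested carriers. Slc25a16 (linked to coenzyme A) and the carriers of pyrimidine nucleotides (Slc25a36), glutathione (Slc25a39) and ATP-Mg/phosphate (Slc25a23) rose, and the citrate carrier Slc25a1 and the uncoupling-protein-like Slc25a30 fell. The folds lay between 1.32 and 1.82. The 6 are 14.6% of the members tested, against 10.8% of all 14162 genes called in this comparison, 5.56% as higher and 5.19% as lower (edgeR quasi-likelihood test, Benjamini-Hochberg adjusted p under 0.05). The median log2 fold change of the members was 0.04 and that of all genes tested 0.0029. For 12 members the 3 shMtfr1l and 3 shNT libraries did not overlap, against 26% of all genes, and these include the 6 called. By role, 3 of 12 cofactor and metal carriers rose, 1 of 8 nucleotide and phosphate carriers rose, 1 of 3 di- and tricarboxylate carriers fell, and none of the 9 amino acid and carnitine carriers was called (3 had an unadjusted p under 0.05).

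Slc25a16, a carrier linked to coenzyme A in the matrix, was at 22.3, 22.01 and 25.7 CPM in shNT and at 40.5, 34.3 and 41.7 CPM in shMtfr1l. The groups were well apart, and the change was 1.66-fold (log2 fold change 0.73 ± 0.10 SE, adjusted p = 2.92e-06). Slc25a39, which brings glutathione into the matrix, was at 98.6, 97.9 and 96.95 CPM in shNT and at 140.8, 134.5 and 130.8 CPM in shMtfr1l, a rise of 1.38-fold (log2 0.47 ± 0.060 SE, adjusted p = 3.68e-07). Its 3 control libraries lay close together, below all knockdown libraries. Slc25a40, its paralog with the same substrate, was at 13.7 ± 2.06 CPM in shNT and 15.6 ± 1.36 in shMtfr1l and was not called (adjusted p = 0.582).

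Slc25a36, a pyrimidine nucleotide carrier, was at 72.5, 69.7 and 71.2 CPM in shNT and at 95.1, 98.1 and 102.6 CPM in shMtfr1l. All 3 knockdown libraries were higher, by 1.39-fold on average (log2 0.47 ± 0.071 SE, adjusted p = 6.28e-06). Its paralog Slc25a33 was not called in any comparison. Slc25a23, a calcium-regulated ATP-Mg/phosphate carrier, was at 55.0, 61.1 and 57.7 CPM in shNT and at 80.3, 74.8 and 74.1 CPM in shMtfr1l, again without overlap (1.32-fold, log2 0.40 ± 0.081 SE, adjusted p = 6.08e-04). Its paralog Slc25a24 moved the other way without being called, at 60.7 ± 2.02 CPM in shNT and 53.4 ± 1.73 in shMtfr1l (SD, n = 3; adjusted p = 0.159).

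Slc25a1 exports citrate, from which acetyl-CoA for lipid synthesis and histone acetylation is made. It was at 109.7, 101 and 93.4 CPM in shNT and at 76.0, 80.0 and 70.9 CPM in shMtfr1l. Every knockdown library was below every control, and the fall was 1.34-fold (log2 fold change -0.42 ± 0.075 SE, adjusted p = 1.08e-04). Slc25a30 is grouped here with the carriers that are like the uncoupling proteins. It was at 9.40, 12.5 and 13.7 CPM in shNT and at 7.90, 5.78 and 5.92 CPM in shMtfr1l, a fall of 1.82-fold (log2 -0.86 ± 0.199 SE, adjusted p = 0.00256). The groups did not overlap, and shNT replicate 1 and shMtfr1l replicate 1 lay closest. Without shMtfr1l replicate 1, the library with high adipocyte markers, all 6 carriers were still called, with log2 fold changes from -1.02 for Slc25a30 to 0.70 for Slc25a16. The summed cardiomyocyte markers were higher in all 3 shMtfr1l libraries than in shNT, and their part in these carrier changes was not tested.

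**Figure D2:**
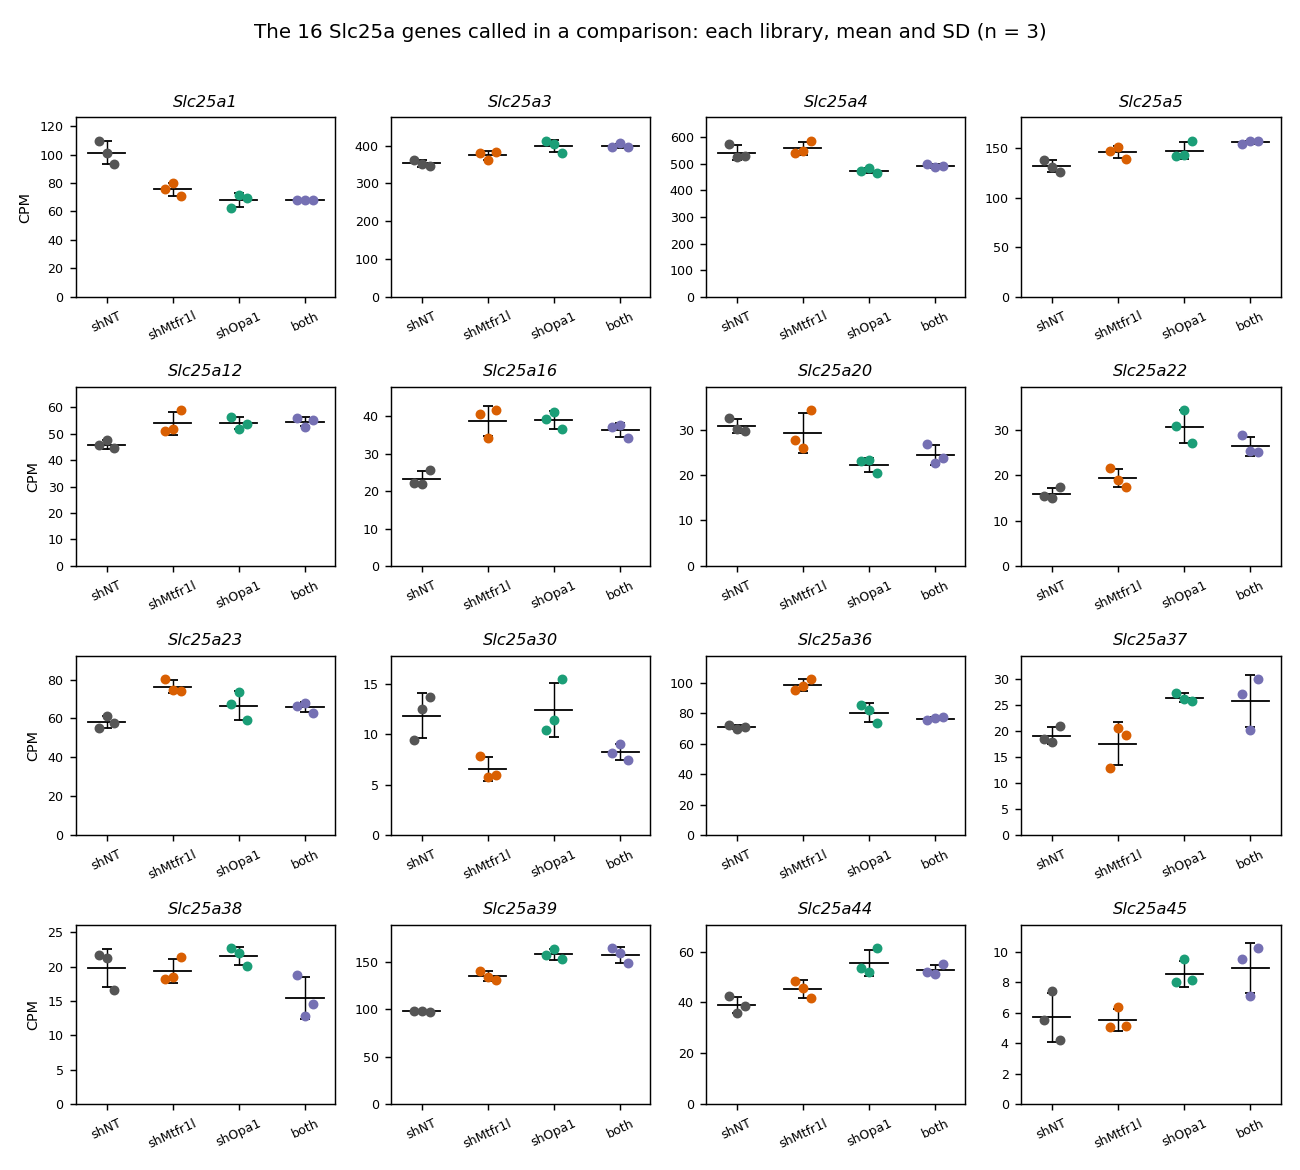
CPM of the 16 Slc25a genes called in at least 1 of 6 comparisons, for each library of the 4 groups, with the mean and the SD (n = 3). Each vertical axis starts at 0. Slc25a1 is highest in shNT, Slc25a16 and Slc25a39 are lowest there, and Slc25a36 is highest in shMtfr1l.

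Knockdown of Opa1 changed 12 of the 41 tested carriers. The glutamate carrier Slc25a22 rose most, and the other rises were Slc25a3, Slc25a5, Slc25a12, Slc25a16, Slc25a37, Slc25a39, Slc25a44 and Slc25a45. The 3 that fell were the citrate carrier Slc25a1, the heart-type ADP/ATP carrier Slc25a4 and the acylcarnitine carrier Slc25a20. These 12 are 29.3% of the 41 tested members, against 29.4% of all genes called in this comparison (14.3% as higher and 15.1% as lower), so the share is that of the background. Rises outnumbered falls by 9 to 3 among members, and were 2025 against 2139 among all genes. The median log2 fold change was 0.17 for members and 0.0098 for all genes, and 18 members had no overlap between groups, against 40.5% of all genes.

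Of 9 amino acid and carnitine carriers 3 rose and 1 fell, which is 44.4%, against 29.4% of all genes called and 14.3% called as higher. Slc25a22, which imports glutamate, was at 15.5, 15.1 and 17.4 CPM in shNT and at 30.8, 34.5 and 27.1 CPM in shOpa1. The lowest knockdown library was well above the highest control, and the change was 1.93-fold (log2 0.95 ± 0.127 SE, adjusted p = 1.69e-07). Slc25a44, a carrier of branched-chain amino acids, was at 42.5, 36.1 and 38.5 CPM in shNT and at 53.5, 51.9 and 61.4 CPM in shOpa1, also without overlap (1.43-fold, adjusted p = 2.52e-05). Slc25a12, the aspartate/glutamate carrier of the malate-aspartate shuttle, rose less, from 45.9 ± 1.61 to 54.1 ± 2.33 CPM (SD, n = 3; adjusted p = 0.0302). Its call was lost without any 1 of shNT replicates 1 and 3 or shOpa1 replicates 1 and 3 (adjusted p from 0.0635 to 0.120). Slc25a13, the other carrier with this substrate pair, was at 3.25 ± 1.37 CPM in shNT and 4.73 ± 2.02 in shOpa1 (adjusted p = 0.378), with wide spread at this low level. Slc25a15, an ornithine carrier, was at 15.6 ± 0.704 and 19.8 ± 2.20 CPM and was not called (adjusted p = 0.0569).

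Slc25a20 exchanges acylcarnitines for carnitine and is needed for long-chain fatty acid oxidation. It was at 32.6, 30.1 and 29.7 CPM in shNT and at 23.1, 23.2 and 20.4 CPM in shOpa1, a fall of 1.38-fold (log2 -0.47 ± 0.119 SE, adjusted p = 0.00215). All 3 knockdown libraries lay below the controls. In shMtfr1l it spread from 25.9 to 34.3 CPM, across the range of shNT, and was not called.

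The 3 main carriers of ATP synthase substrates moved by small amounts. Slc25a4 was at 573.3, 525.7 and 528.7 CPM in shNT and at 475.2, 483.8 and 464.2 CPM in shOpa1 (1.14-fold lower, log2 -0.19 ± 0.048 SE, adjusted p = 0.00159). Slc25a3 went the other way, with 363.3, 350.3 and 345.3 CPM in shNT and 412.9, 403.5 and 381.9 in shOpa1 (1.13-fold higher, adjusted p = 0.00404). Neither gene's groups overlapped. Slc25a5 was at 138, 131.2 and 126 CPM in shNT and at 142.4, 143.1 and 157.7 in shOpa1, a 1.12-fold difference (adjusted p = 0.0329) that was no longer called without any 1 of shNT replicates 2 and 3 or shOpa1 replicate 3 (adjusted p from 0.0817 to 0.211). Counts of Slc25a5 are also less certain than those of Slc25a4: 46.6% of the 50-base words of its transcript occur in 9 other annotated genes, against 0% for Slc25a4, and reads that map to several places were not counted. The summed cardiomyocyte markers were lower in all shOpa1 libraries than in shNT, beside the fall of the heart-type carrier Slc25a4, and their part in it was not tested.

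Because one ADP/ATP carrier fell while the other rose, their ratio shifted, a value chosen after the levels were seen. Per kb, Slc25a4 stood above Slc25a5 by 4.65, 4.48 and 4.70 times in the shNT libraries and by 3.73, 3.78 and 3.30 times in shOpa1. Reads of Slc25a5 that map to several places were not counted, so the ratio may be overstated in every group. In the double knockdown the ratio was 3.62, 3.47 and 3.49. Every library with the Opa1 hairpin was thus below every shNT library. In shMtfr1l it was 4.10, 4.05 and 4.70, which overlaps shNT.

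Of 12 cofactor and metal carriers 3 rose and none fell, which is 25%, against 29.4% of all genes called and 14.3% called as higher. Slc25a39 rose further than after Mtfr1l knockdown, to 157.3, 163.8 and 152.7 CPM, 1.61-fold above shNT (log2 0.69 ± 0.060 SE, adjusted p = 8.41e-12). Slc25a16 reached 39.4, 41.2 and 36.6 CPM, the range it had in shMtfr1l, and was 1.67-fold above shNT (log2 0.74 ± 0.105 SE, adjusted p = 4.97e-07). Slc25a37, the mitoferrin that imports iron, was at 18.4, 17.8 and 20.9 CPM in shNT and at 27.4, 26.3 and 25.7 in shOpa1 (1.39-fold, adjusted p = 0.0145). Its groups did not overlap, but the call was lost without any 1 of shNT replicates 1 and 2 or shOpa1 replicate 1 (adjusted p from 0.0503 to 0.0708). Slc25a28, the other mitoferrin, was at 12.02 ± 2.97 CPM in shNT and 13.9 ± 2.56 in shOpa1 and was not called (adjusted p = 0.425).

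Slc25a1 was at 62.4, 71.9 and 69.4 CPM in shOpa1, 1.49-fold below shNT (log2 -0.58 ± 0.075 SE, adjusted p = 9.61e-08). The highest of these was below the lowest shNT library. Slc25a11, the oxoglutarate carrier of the malate-aspartate shuttle, was level across the groups, at 72.3 ± 5.21 CPM in shNT, 73.1 ± 2.48 in shMtfr1l, 71.3 ± 2.99 in shOpa1 and 72.2 ± 6.26 with both hairpins. Slc25a45 was at 5.56, 7.41 and 4.21 CPM in shNT and at 8.02, 9.56 and 8.16 in shOpa1. The groups did not overlap, yet its call (adjusted p = 0.0468) was lost with the replicate number as a block (adjusted p = 0.0522) and without any 1 of 5 of the 6 libraries, all but shNT replicate 2 (adjusted p from 0.0650 to 0.256). DESeq2, the fit of only the groups compared and the fit without the robust spread lost it too. In all, 12 of 15 alternatives lost this call.

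**Figure D3:**
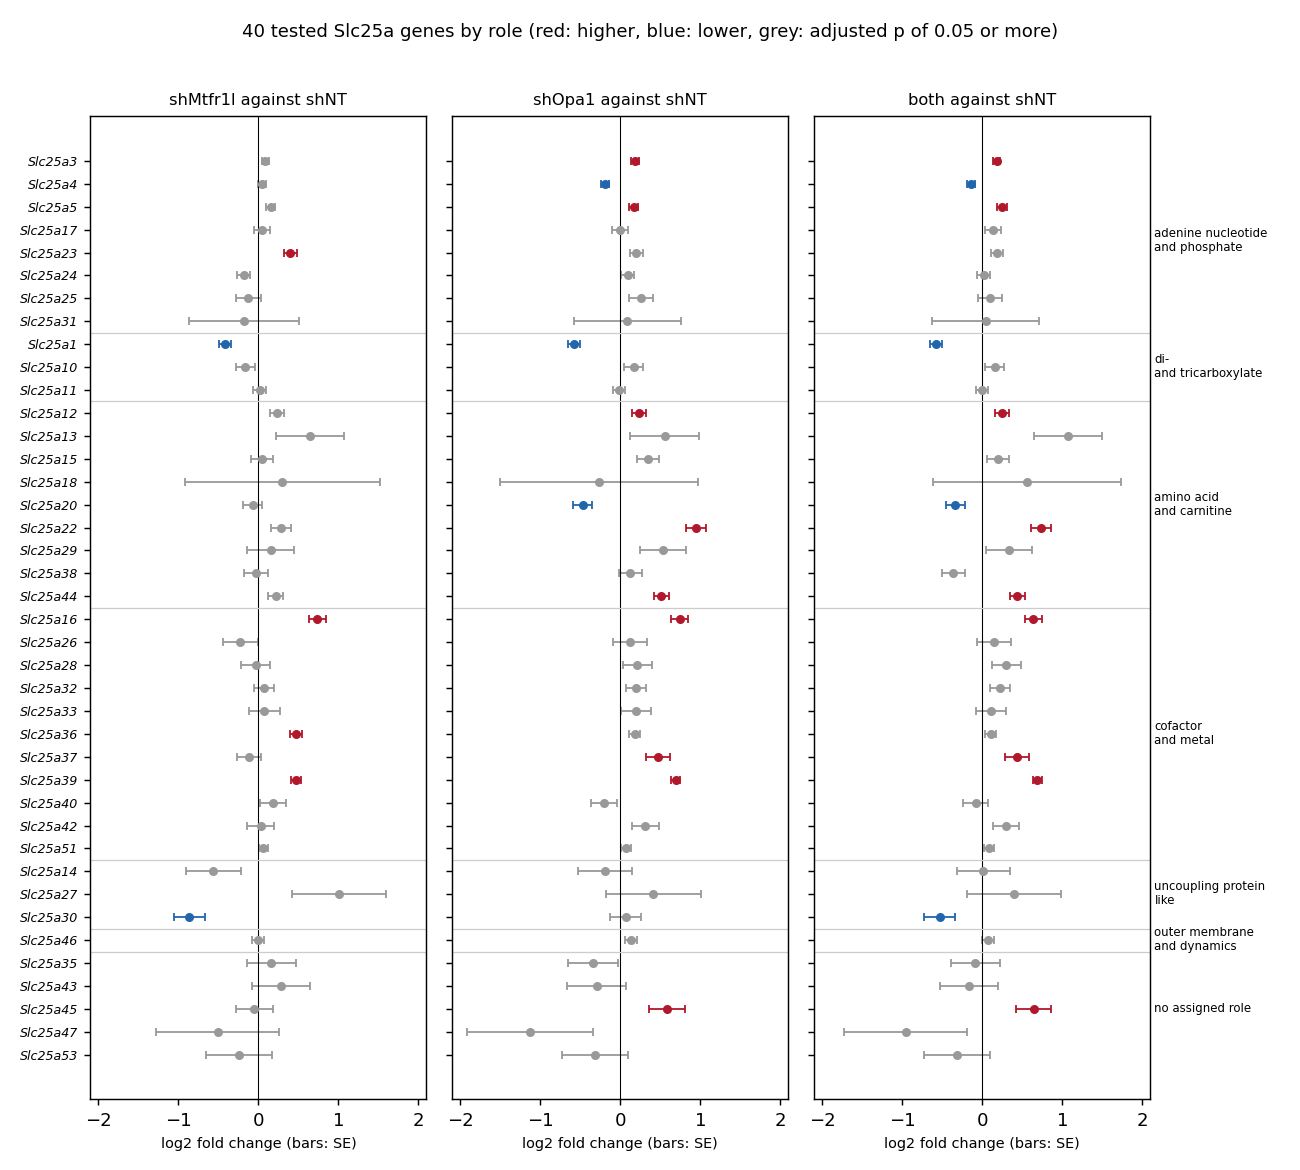
Log2 fold change against shNT, with its SE, for 40 tested Slc25a genes grouped by role, in shMtfr1l, shOpa1 and the double knockdown. Red points passed an adjusted p of 0.05 as higher and blue ones as lower: 4 and 2, 9 and 3, and 9 and 4 genes from left to right.

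The double knockdown changed 13 members against shNT, 9 higher and 4 lower. That is 31.7% of those tested, against 23.1% of all genes called in this comparison, 11.2% as higher and 11.9% as lower. The median was 0.13 for members and 0.0037 for all genes, and 19 members did not overlap between groups, against 38.9% of all genes. Higher were Slc25a3, Slc25a5, Slc25a12, Slc25a16, Slc25a22, Slc25a37, Slc25a39, Slc25a44 and Slc25a45, and lower were Slc25a1, Slc25a4, Slc25a20 and Slc25a30. This comparison shares the shNT libraries with both single knockdown comparisons, so it is no independent repeat of them. Without double knockdown replicate 3, 7 members were called. The uncoupling-protein-like Slc25a30 was at 8.17, 9.03 and 7.43 CPM against 9.40, 12.5 and 13.7 in shNT (1.45-fold lower, adjusted p = 0.0415). With the replicate number as a block its adjusted p was 0.0604, and without any 1 of the 3 double knockdown libraries or shNT replicates 2 and 3 it was from 0.0516 to 0.199. In shOpa1 alone Slc25a30 was at 10.4, 11.5 and 15.5 CPM, across the range of shNT.

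The largest called changes in the double knockdown were Slc25a22, Slc25a39, Slc25a16 and Slc25a45. Slc25a22 was at 28.9, 25.5 and 25.1 CPM (1.66-fold above shNT, adjusted p = 3.03e-05), and Slc25a39 at 164.5, 159.8 and 148.3 CPM (1.61-fold, adjusted p = 2.36e-11). Neither overlapped shNT. Slc25a16 was at 37.2, 37.7 and 34.2 CPM (1.56-fold, adjusted p = 1.22e-05). Slc25a1 was at 67.7, 68.1 and 68.4 CPM, 1.49-fold below shNT (adjusted p = 2.01e-07). Slc25a44 rose to 52.7 ± 2.05 CPM (adjusted p = 3.64e-04), Slc25a5 to 156.4 ± 1.5 (adjusted p = 0.00181) and Slc25a3 to 399.2 ± 6.29 (adjusted p = 0.00545; SD, n = 3).

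5 of these calls rested on single libraries besides that of Slc25a30. Slc25a4, at 492.7 ± 6.88 CPM (SD, n = 3; adjusted p = 0.0296), was not called without any 1 double knockdown library or shNT replicate 1 (adjusted p up to 0.151). Slc25a20, at 24.3 ± 2.20 CPM (SD, n = 3; adjusted p = 0.0327), was lost without any 1 of the 3 shNT libraries or double knockdown replicates 2 and 3 (up to 0.138). Slc25a12, at 54.6 ± 1.66 CPM (adjusted p = 0.0264), was lost without double knockdown replicate 1 or 3 or shNT replicate 1 or 3 (up to 0.0998). For Slc25a37, at 27.2, 20.2 and 30.0 CPM (adjusted p = 0.0299), replicate 2 fell within the shNT range, and the call was lost without double knockdown replicate 1 or 3 or shNT replicate 1 or 2 (up to 0.186). For Slc25a45, at 9.54, 7.08 and 10.3 CPM (adjusted p = 0.0325), replicate 2 lay below shNT replicate 2, and the call was lost without double knockdown replicate 1 or 3 or shNT replicate 1 or 3 (up to 0.201). Slc25a13 was at 6.79 ± 1.80 CPM, against 3.25 ± 1.37 in shNT (SD, n = 3), and was not called (log2 1.07 ± 0.422 SE, adjusted p = 0.0823). Slc25a13 was called by DESeq2 (adjusted p = 0.0345), and over all alternatives its adjusted p ran from 0.00127 to 0.234.

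Between shMtfr1l and the double knockdown, which adds the Opa1 hairpin, 6 members were called. That is 14.6%, against 21.5% of all genes called between these groups, 9.72% as higher and 11.7% as lower. Mtfr1l itself was at 16.4 CPM in shMtfr1l and 27.2 CPM in the double knockdown, and the part of this difference was not tested. Slc25a22, Slc25a37, Slc25a39 and Slc25a45 were higher in the double knockdown than in shMtfr1l, and Slc25a4 and Slc25a36 were lower. The median was 0.10 for members and 0.0035 for all genes, and 18 members did not overlap, against 37% of all genes. Slc25a36 fell from 95.1, 98.1 and 102.6 CPM in shMtfr1l to 75.4, 76.8 and 77.3 (1.29-fold, log2 -0.37 ± 0.070 SE, adjusted p = 1.25e-04), close to the 69.7 to 72.5 CPM of shNT. Slc25a4 fell from 541.9, 549.5 and 586.8 CPM to 500.3, 486.9 and 490.7 (1.14-fold, adjusted p = 0.00399). Both genes were lower in all 3 double knockdown libraries. The summed cardiomyocyte markers were also lower in each of these libraries than in shMtfr1l, and their part in this was not tested. Slc25a39 was 1.16-fold higher (adjusted p = 0.0059). The other 3 rises rested on single libraries. Slc25a22 (1.36-fold, adjusted p = 0.00819) was lost without shMtfr1l replicate 3 or double knockdown replicate 1 (adjusted p up to 0.0603). Slc25a37 (1.47-fold, adjusted p = 0.00612) was lost without shMtfr1l replicate 1 or double knockdown replicate 3 (up to 0.0857), and its groups overlapped. Slc25a45 (1.62-fold, adjusted p = 0.0224) was lost without shMtfr1l replicate 1 or 3 or double knockdown replicate 1 or 3 (up to 0.113). With the replicate number as a block, Slc25a23 was also called as lower (log2 -0.22, adjusted p = 0.0496).

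Between shOpa1 and the double knockdown, which adds the Mtfr1l hairpin, 1 member was called, the glycine carrier Slc25a38, which also serves heme synthesis. That is 2.44% of those tested, against 4.77% of all genes called between these groups, 2.31% as higher and 2.46% as lower. It was at 22.7, 21.9 and 20.0 CPM in shOpa1 and at 18.8, 12.8 and 14.5 CPM in the double knockdown, without overlap (log2 -0.49 ± 0.145 SE, adjusted p = 0.0412). The call was lost without double knockdown replicate 2 or 3 or shOpa1 replicate 1 or 2 (adjusted p from 0.120 to 0.255), and 4 members in all did not overlap, against 21.7% of all genes. None of the 6 members called in shMtfr1l against shNT was called here, and 2 of the 41 members had an unadjusted p under 0.05. The second of these was Slc25a30, which was at 10.4, 11.5 and 15.5 CPM in shOpa1 and at 8.17, 9.03 and 7.43 with both hairpins. Its groups did not overlap, with a log2 fold change of -0.60 ± 0.193 SE (adjusted p = 0.0665), and it was called with no filter on low counts (adjusted p = 0.0404). Over all alternatives the adjusted p of Slc25a30 ran from 0.0404 to 0.555. The median was -0.0008 for members and 0.0004 for all genes. Opa1 itself was at 8.96 CPM in shOpa1 and 18.3 CPM in the double knockdown, and the part of this difference was not tested.

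For 5 carriers the joint knockdown differed from the sum of the single ones. Mtfr1l was less reduced in the double knockdown (27.2 CPM) than in shMtfr1l (16.4). Opa1 was also less reduced there (18.3 CPM) than in shOpa1 (8.96). The part of these differences was not tested. The interaction, the log2 fold change in the double knockdown less the sum of the single ones, was called for Slc25a1, Slc25a16, Slc25a23, Slc25a36 and Slc25a39. These are 12.2% of the 41 tested members, against 3.56% of all genes called for the interaction (1.57% as positive and 1.99% as negative). The interaction uses the libraries of the comparisons above, so each gene's own values are set side by side here. Without shNT replicate 1 or shOpa1 replicate 1, 3 members were called. The median interaction was -0.04 for members and 0.0077 for all genes.

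For Slc25a16 the single knockdowns gave log2 fold changes of 0.73 and 0.74, which sum to 1.48, and the double knockdown gave 0.64 (interaction -0.84 ± 0.147 SE, adjusted p = 3.33e-04). The level in all 3 knockdown groups was thus about the same, from 34.2 to 41.7 CPM in 9 libraries. For Slc25a39 the single effects of 0.47 and 0.69 sum to 1.16, and the double knockdown gave 0.69 (interaction -0.47 ± 0.084 SE, adjusted p = 4.06e-04), equal to shOpa1 alone. Slc25a1 was the mirror image, with falls of -0.42 and -0.58 that sum to -0.997 and -0.57 measured (interaction 0.42 ± 0.106 SE, adjusted p = 0.0158). Its interaction was lost without shNT replicate 1 or shOpa1 replicate 1 (adjusted p = 0.0551 to 0.0688).

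For Slc25a36 the rise of 0.47 in shMtfr1l was 0.11 in the double knockdown (interaction -0.54 ± 0.100 SE, adjusted p = 5.87e-04), although shOpa1 alone had not lowered it (0.18). For Slc25a23 the single values were 0.40 and 0.20 and the double value was 0.18 (interaction -0.42 ± 0.114 SE, adjusted p = 0.0299). That call was lost when any 1 of 7 of the 12 libraries was left out: shMtfr1l replicate 1, double knockdown replicates 1 and 3, shNT replicates 1 and 3, or shOpa1 replicates 1 and 2 (adjusted p up to 0.128). On the log2 scale, the double knockdown differed from shOpa1 by -0.10 for Slc25a16, -0.07 for Slc25a36 and -0.02 for Slc25a23. The difference was -0.004 for Slc25a39 and 0.003 for Slc25a1.

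**Figure D4:**
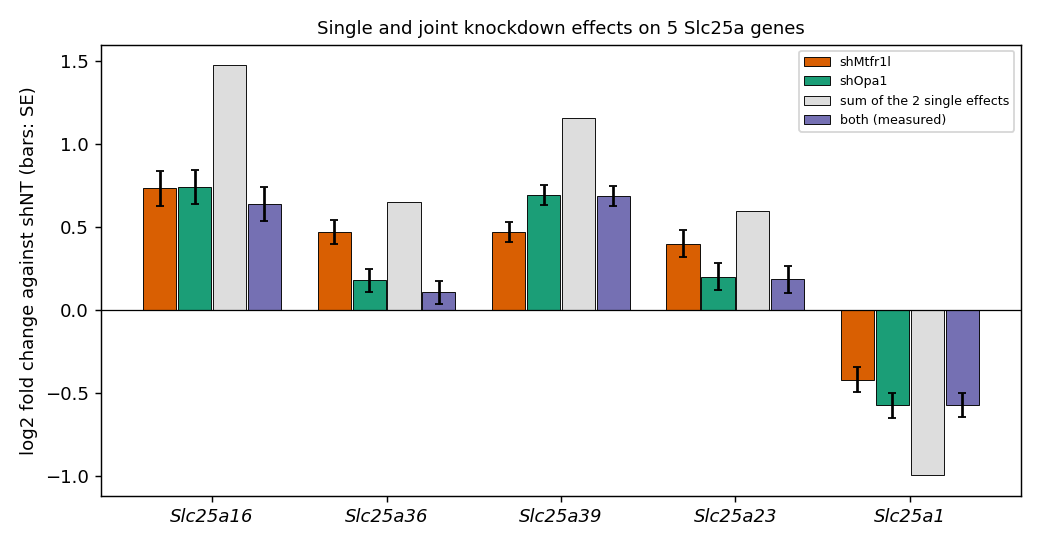
Log2 fold changes against shNT (bars: SE) for the 5 Slc25a genes with a called interaction: each single knockdown, the sum of both, and the measured double knockdown. In all 5 genes the measured bar is shorter than the sum, for example 0.64 against 1.48 for Slc25a16.

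The promoters of 4 of these carriers are given here. These 4 genes were called both under Mtfr1l knockdown, where 3 rose and Slc25a1 fell, and for the interaction. Slc25a23 was called in both too, and its windows, which hold CCAAT, are not printed. The interaction holds the shMtfr1l against shNT change with its sign reversed, so a call in both is not independent. Each window runs from 250 bases before to 50 after the start in RefSeq (GRCm38.p6), on the gene's strand. Capitals mark matches to TGACGTCA, the cyclic AMP response element, or CCAAT on either strand (ATTGG is the reverse complement). The gene bodies in the count table (mm10) are chromosome 10, 62920633 to 62946494 (Slc25a16), chromosome 11, 102402976 to 102407517 (Slc25a39), chromosome 9, 97077011 to 97111041 (Slc25a36) and chromosome 16, 17925211 to 17928219 (Slc25a1).
Slc25a16, chr10:62920383-62920682, plus strand: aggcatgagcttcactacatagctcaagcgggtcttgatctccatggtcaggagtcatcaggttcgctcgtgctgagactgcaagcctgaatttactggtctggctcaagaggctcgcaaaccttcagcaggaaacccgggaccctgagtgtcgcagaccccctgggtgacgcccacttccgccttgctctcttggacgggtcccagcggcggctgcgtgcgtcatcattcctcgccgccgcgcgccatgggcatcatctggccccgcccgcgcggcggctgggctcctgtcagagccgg
Slc25a39, chr11:102407468-102407767, minus strand: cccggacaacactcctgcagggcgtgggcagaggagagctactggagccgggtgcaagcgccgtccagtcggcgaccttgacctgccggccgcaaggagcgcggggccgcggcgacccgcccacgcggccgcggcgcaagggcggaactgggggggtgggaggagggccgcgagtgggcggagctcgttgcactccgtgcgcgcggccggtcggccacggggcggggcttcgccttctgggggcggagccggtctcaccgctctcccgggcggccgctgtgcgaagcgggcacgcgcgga
Slc25a36, chr9:97110992-97111291, minus strand: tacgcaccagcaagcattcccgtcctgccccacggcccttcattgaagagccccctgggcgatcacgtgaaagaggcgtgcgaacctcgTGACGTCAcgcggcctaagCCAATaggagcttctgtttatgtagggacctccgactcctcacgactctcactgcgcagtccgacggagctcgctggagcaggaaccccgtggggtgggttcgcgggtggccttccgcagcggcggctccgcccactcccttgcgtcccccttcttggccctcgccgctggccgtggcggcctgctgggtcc
Slc25a1, chr16:17928170-17928469, minus strand: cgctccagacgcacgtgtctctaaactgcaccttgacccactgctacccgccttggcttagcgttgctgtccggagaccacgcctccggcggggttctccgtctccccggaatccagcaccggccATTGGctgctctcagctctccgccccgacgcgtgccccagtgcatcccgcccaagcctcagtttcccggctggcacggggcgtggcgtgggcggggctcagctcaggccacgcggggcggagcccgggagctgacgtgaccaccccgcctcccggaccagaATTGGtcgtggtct

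GC content of these windows was 63.7%, 77.3%, 66.7% and 69.3% in the order shown. The Slc25a36 window holds 1 TGACGTCA and 1 CCAAT, the Slc25a1 window holds 2 CCAAT, and the other two hold neither. Of the 47 members, 36 have a RefSeq window, 46 windows in all. TGACGTCA was in 4.35% of them (2 windows, of Slc25a25 and Slc25a36), against 1.79% of all 32851 windows, and CCAAT in 47.8% against 37.4%. 4 further motifs were searched on both strands. The NRF1 motif was in 4.35% of member windows and 4.60% of all, and the ERR motif AAGGTCA in 2.17% and 4.72%. The C/EBP-ATF motif TGATGNAA was in 0% and 3.97%, and the SREBP motif TCACNCCAC in 2.17% and 1.24%. No motif match was shared by all 4 printed windows.

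Genes that work with the carriers moved in a mixed way. Of 15 genes for import of carriers (among them TOM and small TIM subunits), 5 rose and none fell in shOpa1, which is 33.3%, against 29.4% of all genes called and 14.3% called as higher. Tomm70a, the receptor that binds carrier precursors, was called at log2 0.46 ± 0.072 SE (adjusted p = 3.18e-06) and Tomm40, the pore, at 0.42 ± 0.076 (adjusted p = 3.11e-05). None of the 15 was called in shMtfr1l by the edgeR test, 2 having an unadjusted p under 0.05. Of 3 tested family members with other symbols, Ucp2, Mtch1 and Mtch2, the outer membrane protein Mtch1 fell in shOpa1 (log2 -0.48 ± 0.046 SE, adjusted p = 7.23e-11) and in the double knockdown (-0.40 ± 0.046, adjusted p = 1.68e-08).

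Of 12 shuttle and partner enzymes, 4 rose in shMtfr1l (33.3%, against 10.8% of all genes called), and 2 rose and 1 fell in shOpa1 (25%, against 29.4%). Got1, the cytosolic transaminase that works with Slc25a12, rose in shMtfr1l (log2 0.31, adjusted p = 0.00424), in shOpa1 (0.41, adjusted p = 3.71e-05) and in the double knockdown (0.58, adjusted p = 1.95e-07). Cpt1a, which makes the acylcarnitines that Slc25a20 carries, fell in shOpa1 (-0.77 ± 0.067 SE, adjusted p = 1.02e-11). It also fell in the double knockdown (-0.46 ± 0.066 SE, adjusted p = 1.45e-06). Slc25a20 fell in both too, but its double knockdown call was lost without any 1 of 5 of the 6 libraries. No other gene of this list was called lower in either group against shNT. Gpd1, a glycerol phosphate shuttle enzyme, was called in shMtfr1l (log2 2.22, adjusted p = 0.0154) with 7.22, 1.87 and 0.812 CPM against 0.244, 1.21 and 0.614 in shNT. Its high library was replicate 1, the one with adipocyte markers, and its groups overlapped. Among the 14 other inner membrane transporters tested, 3 rose and 4 fell in shOpa1 (50%, against 29.4% of all genes called), led by the fall of Abcb10 (-0.90 ± 0.111 SE, adjusted p = 3.12e-08), a transporter that binds the mitoferrin Slc25a37. Of 17 ATP synthase and creatine kinase genes, 5 rose and 2 fell in shMtfr1l (41.2%, against 10.8% of all genes called), and 3 rose and 3 fell in shOpa1 (35.3%, against 29.4%). No gene of these lists was called for the interaction by the edgeR test. At an unadjusted p under 0.05 the interaction counts were 2 of 3 for the other family members and 1 of 15 for import. They were 1 of 14 for inner membrane transport and 1 of 3 for outer membrane channels. For shuttle enzymes the count was 3 of 12, and for ATP synthase and creatine kinase 7 of 17. The share of all genes at this unadjusted p was not computed for any comparison, so these counts have no background beside them.

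The first set gives 1 sample per condition, so its values have no replicate check. Each sample's 3 count columns were summed, to 67068683 counts for shNT and 62923192 for shMtfr1l. Mtfr1l was at 79.2 CPM in shNT and 8.73 in shMtfr1l, and Opa1 at 80.1 and 85.4. The cardiomyocyte markers summed to 8295 and 12905 CPM, above the level of any library of the second set. The 6 carriers called in the second set all had the same sign here, as did 1241 of the 1509 called genes compared in both sets. Slc25a16 was at 29.2 CPM in shNT and 43.8 in shMtfr1l, Slc25a36 at 122.2 and 140.7, and Slc25a1 at 84.6 and 53.9. Slc25a30 was at 8.84 and 4.48 CPM. For these 4 the count columns of the samples did not overlap, as for uncalled members such as Slc25a3, Slc25a24 and Slc25a46. The columns belong to 1 sample per condition, so this is no replicate check, and the share over all genes was not computed. Slc25a23 was at 96.4 and 107.9 CPM and Slc25a39 at 125.3 and 132, with columns that overlapped. Among all 39 members with 60 or more counts, 24 had the same sign in both sets, beside 8452 of 13463 genes in all.

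Slc25a46, an outer membrane member that acts on mitochondrial shape rather than in transport, was at 55.2 and 75.0 CPM in the first set (log2 ratio 0.44), while in the second set it was level, at 65.1 ± 2.03 CPM in shNT and 64.8 ± 2.51 in shMtfr1l. This difference between the sets was not tested.

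**Figure D5:**
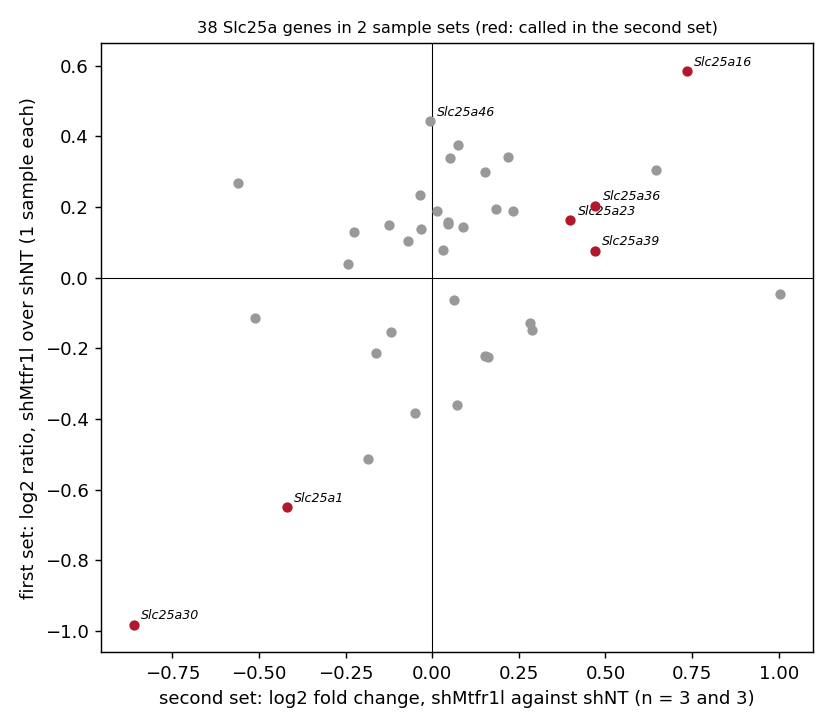
Log2 change of 38 Slc25a genes under Mtfr1l knockdown in the second set (horizontal, n = 3 and 3) and the first set (vertical, 1 sample each). The 6 red genes called in the second set lie in the lower left or upper right of the plot, and Slc25a46 is an example that differs between sets.

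In all, 16 members were called in at least 1 of the 6 comparisons and 25 tested members in none. The share of all genes called in at least 1 of them was not computed, so these counts have no background beside them. Slc25a16 and Slc25a39 were higher and Slc25a1 was lower in all 3 knockdown groups than in the shNT libraries, which these comparisons share. Members that kept a level near shNT include Slc25a51, the NAD carrier, at 114.7 ± 2.09 CPM in shNT, 119.9 ± 6.29 in shMtfr1l, 120.6 ± 3.55 in shOpa1 and 121.5 ± 0.805 with both hairpins. Slc25a17, the peroxisomal member, was at 41.3 ± 2.00, 42.6 ± 4.06, 41.2 ± 4.72 and 45.3 ± 1.69 CPM in the same order (SD, n = 3). Slc25a51 was not called, though all its libraries with the Opa1 hairpin (117.3 CPM or more) lay above all shNT libraries (116.6 CPM or less). Members that were not called in shMtfr1l against shNT had log2 fold changes from -0.56 to 1.004, the extremes being the low-level Slc25a14 and Slc25a27, and 27 of those 35 lay within 0.25 of 0. A p that missed the threshold does not show that their levels were equal.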

How the data were processed

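Bulk RNA was sequenced from 18 samples, of which 14 are used here. The deposited tables hold unnormalised counts that the authors made with featureCounts 2.0.6, stranded and with UCSC's mm10 gene models, each mate counting by itself, per the file headers. FastQC and DESeq2 are listed in the submitters' processing notes, and no aligner is named there or in the labels. The 12 count columns of the 4 fibroblast samples could not be tied to labels and are not analysed here.

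The 12 libraries of the second set were scaled with TMM, filtered with filterByExpr and fitted together in edgeR 4.0.16 (robust quasi-likelihood test, 8 residual degrees of freedom) under R 4.3.3. P-values were adjusted over 14162 genes, and genes under 0.05 were called. The SE is the log2 fold change over the root of F. CPM per kb uses the file's gene lengths. A floor of 3 counts covers counting error alone. The common biological coefficient of variation was 12.0%. Scripts were tested on simulated data. No library was a copy of another of its group (chi-square per gene from 5.05 to 9.33).

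The labels tie a replicate number to a day. The reported fit does not use the number. Same-numbered libraries correlated in their deviations between -0.189 and 0.122. The block on replicate number was an alternative, beside another scaling (RLE), no filter, no robust spread, only the groups compared, DESeq2 and leaving out libraries. The settings without the robust spread, and without 1 replicate number in every group, were added after seeing the data. Members, roles and partner lists were chosen with earlier results of these data known. Genes named are members called in any comparison, the 5 highest per kb, their paralogs, members removed by the filter, and up to 4 called partner genes per list. The ratio of Slc25a4 to Slc25a5 and some members at a steady or extreme value were chosen after their values were seen. 1 tested member, in the counts but in no figure, is not reported here by name.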

Additional observations from a re-analysis of the deposited data

Results flagged for a closer look

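For 5 carriers the interaction test passed: the log2 change in the double knockdown differed from the sum of the single knockdowns. The interaction on the log2 scale was -0.84 for Slc25a16, -0.47 for Slc25a39, -0.54 for Slc25a36, -0.42 for Slc25a23 and 0.42 for Slc25a1. Mtfr1l was at 27.2 CPM in the double knockdown and 16.4 in shMtfr1l, and Opa1 at 18.3 CPM in the double knockdown and 8.96 in shOpa1. The part of these differences in the interactions was not tested. The call of Slc25a1 was lost without either of 2 of the 12 libraries, and that of Slc25a23 without any 1 of 7.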

How the results depend on the processing

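Of 43 calls of a member in a comparison, 20 were kept under every alternative run, and none changed direction. The calls kept throughout were Slc25a1, Slc25a16, Slc25a36 and Slc25a39 in shMtfr1l against shNT, Slc25a1, Slc25a4, Slc25a16, Slc25a20, Slc25a22, Slc25a39 and Slc25a44 in shOpa1, Slc25a1, Slc25a5, Slc25a16, Slc25a22, Slc25a39 and Slc25a44 in the double knockdown, Slc25a36 between the double knockdown and shMtfr1l, and Slc25a16 and Slc25a39 for the interaction. Another scaling and no filter lost 0 of the 43, DESeq2 lost 1, the replicate block 2, only the groups compared 2 and no robust spread 3. With the replicate block the counts of called members were 6, 11, 12, 7, 1 and 5 in the order of the comparisons above, and the block changed no other call than the 3 given in the report. Between the double knockdown and shOpa1 the count of 1 became 2 without the filter and 0 without the robust spread. Leaving out 1 library gave 6 to 6 called members in shMtfr1l against shNT, 9 to 12 in shOpa1, 7 to 10 in the double knockdown, 4 to 7 between the double knockdown and shMtfr1l, 0 to 1 between it and shOpa1, and 3 to 5 for the interaction. Leaving out 1 replicate number in every group gave 5 to 5, 7 to 12, 7, 8 or 9, 2 to 5, 0 to 0 and 2 to 4. The causes were not tested, and these settings leave fewer samples. Depth limits the lowest members, and Slc25a18, with counts in 9 of 12 libraries, has an SE of 1.22 on the log2 scale in shMtfr1l.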
